A study of Rattus norvegicus with 12 samples.

Results

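The genes described here encode the conjugation enzymes and the enzymes that clear aldehydes, ketones and related reactive compounds in rat renal cortex. They were taken by symbol: the glutathione S-transferases (Gst and the membrane-bound Mgst), UDP-glucuronosyltransferases (Ugt), sulfotransferases (Sult), aldehyde dehydrogenases (Aldh), aldo-keto reductases (Akr), flavin-containing monooxygenases (Fmo) and carboxylesterases (Ces). Akr1b1, the aldose reductase of the polyol pathway, was left out. The table of 13151 genes held 92 such members, and 83 of them were among the 11633 genes tested, those whose normalized value reached 1 or more in 4 or more rats. The other 9 were Akr1c13, Aldh1a7, Aldh1b1, Ces1a, Ces1c, Gstm6l, Mgst2, Ugt2b and Ugt2b1. Aldh1b1, a mitochondrial aldehyde dehydrogenase, was the only one of these 9 with a group mean above 1. It had values of 5.47, 0.867, 1.47 and 10.2 in the ZL rats, highest in rats 4 and 1, and means of 0.293 in ZF and 0.202 in ZF-SGLT2i. Of the 83 members tested, 75 reached 1 in all 12 rats, and 2 passed the filter almost entirely through 1 group, Sult4a1 through ZL and Aldh1l2 through ZF-SGLT2i. Both had to differ between groups to be tested, so they are part of the counts below but only their values are given.

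The 12 rats were male, 32 weeks old and in 3 groups of 4. ZL rats were untreated Zucker Lean rats. ZF rats were untreated Zucker fatty rats, an obese strain without a working leptin receptor, and the ZF-SGLT2i rats were of the same strain and received canagliflozin, an inhibitor of the glucose transporter SGLT2, at 10 mg/kg/day for 8 weeks from an age of 24 weeks. The comparisons addressed what obesity-related kidney disease changes in the cortex, and what the inhibitor changes once that disease is present. No lean rats with the inhibitor were analysed here, and the strain difference covers everything that differs between lean and fatty rats at this age. The study's methods describe ZL rats only in a set of rats that had earlier kidney biopsies. The treated rats came from a separately bought set, for which no biopsy is described. ZF-SGLT2i against ZL therefore also carries this difference. The study calls the untreated fatty rats sequenced both ZF and ZF-NT, and ZF-NT is its name for the untreated rats of the separately bought set. Depending on their set, ZF against ZL or ZF-SGLT2i against ZF carries the difference too. Its part was not tested in any comparison. The samples are numbered in the labels and are taken as 1 rat each, so p-values measure the spread between these samples. RNA came from whole cortex, in which fewer cells of a type and less RNA per cell cannot be told apart. Lrp2 (megalin), a defining gene of the proximal tubule, where much of renal drug conjugation takes place, had values of 10444 to 11361 (ZL), 6695 to 9531 (ZF) and 5057 to 7384 (ZF-SGLT2i). Of 11 markers of all proximal tubule segments, Lrp2 among them, 7 had a negative and 4 a positive log2 fold change in ZF against ZL. The tests described below called 3 of the 11 lower and 1 higher. Between 8824980 and 12210257 reads per rat fell on genes.

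Conjugating enzymes attach a polar group to a foreign or endogenous compound so that it can leave the cell through transporters. Glutathione S-transferases add glutathione, UDP-glucuronosyltransferases add glucuronic acid from UDP-glucuronic acid, and sulfotransferases add sulfate from PAPS. Aldehyde dehydrogenases oxidise aldehydes to acids, aldo-keto reductases reduce aldehydes and ketones to alcohols, flavin-containing monooxygenases oxidise nitrogen and sulfur atoms, and carboxylesterases split esters and amides. In the kidney these enzymes are best known from proximal tubule cells, and several of them are part of amino acid, folate and steroid metabolism rather than of drug clearance alone.

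Many of these enzymes were lower in the cortex of ZF rats than in that of ZL rats, and many were lower in ZF-SGLT2i rats than in ZL rats, while a smaller number were higher in ZF-SGLT2i than in ZF. In ZF against ZL, 35 of the 83 members tested were lower and 2 were higher (limma on log2(value + 1), Benjamini-Hochberg adjusted p under 0.05 over all genes tested). Of all genes tested, 10.6% were lower and 8.19% were higher, 18.8% in all. The median log2 fold change was -0.40 over the members and -0.0077 over all genes tested. In ZF-SGLT2i against ZF, 11 members were higher and 2 were lower, against 1.39% and 1.75% of all genes (3.15% in all), and the members' median was 0.074. Without ZF rat 3, and likewise without ZF-SGLT2i rat 3, 6 members were called in place of these 13. The calls among all genes fell as well, from 366 to 184 without ZF rat 3 and to 176 without ZF-SGLT2i rat 3. In ZF-SGLT2i against ZL, 34 members were lower and 8 were higher, against 15% and 12.4% of all genes (27.4% in all), with a median of -0.31. The comparisons share groups, so their values are given side by side. In ZF against ZL the values of the 4 rats of each group did not overlap for 29 members (19% of all genes). Treated and untreated ZF rats did not overlap for 18 members (11.2% of all genes), and treated ZF and ZL rats for 40 (28%). Each such member has an exact permutation p of 0.0286, the smallest that the 70 assignments of 4 rats against 4 can give. Without ZL rats 1 and 4, described further on, 23 members were lower and 1 was higher in ZF against ZL, and 22 were lower and 5 higher in ZF-SGLT2i against ZL. Among all genes, 1044 and 1772 were then called in these comparisons, against 2185 and 3184 with all rats.

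The members together had summed values of 18093 to 22158 in the ZL rats, 11136 to 15739 in the ZF rats and 11007 to 13996 in the ZF-SGLT2i rats, equal to 1.71% to 2.11%, 1.15% to 1.65% and 1.11% to 1.42% of reads on genes. The ZL rats did not overlap with either other group, and the ZF and ZF-SGLT2i rats overlapped. The Sult sum was 8441 ± 765 in ZL and 4662 ± 814 in ZF, and 3985 ± 567 in ZF-SGLT2i (mean ± SD, n = 4). The Gst sum was 2177 ± 282, 1408 ± 168 and 1709 ± 174, and the Aldh sum was 5301 ± 309, 3826 ± 511 and 4115 ± 397, in the same order. ZF rat 4 had the highest sum of the ZF rats in 7 of the 8 families, and ZF-SGLT2i rat 6 had the lowest of its group in all 8.

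**Figure D1:**
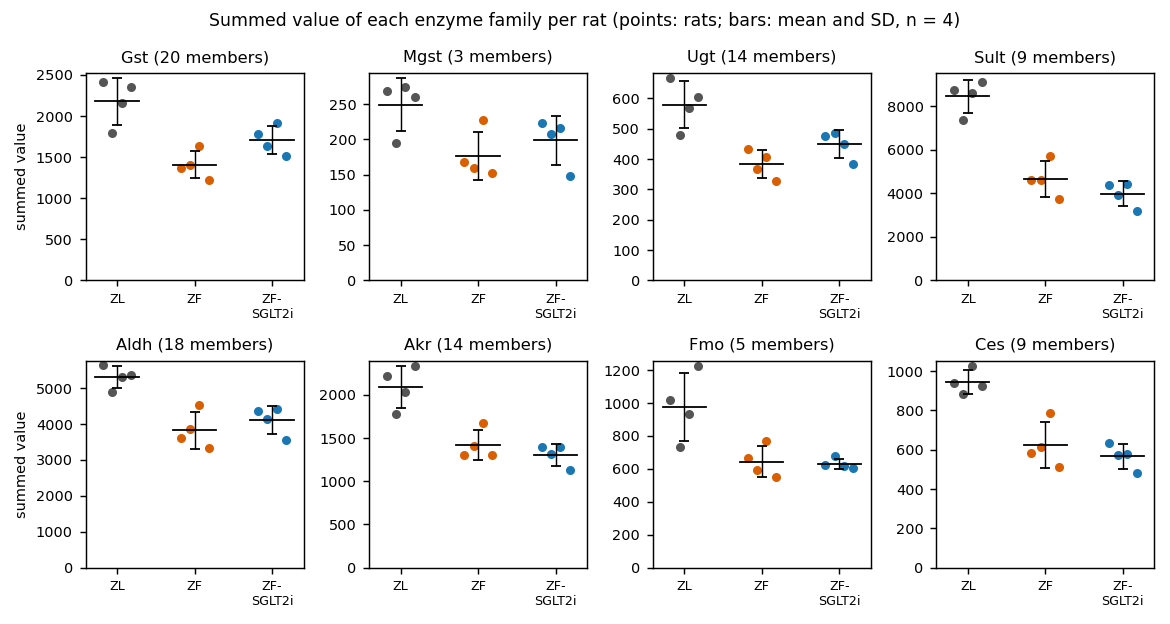
Summed normalized value of each enzyme family (vertical axis, from 0) in the 3 groups (horizontal axis). Points are rats, and bars are the mean and SD of 4 rats. In the Sult panel the ZL rats range from 7338 to 9099 and the ZF rats from 3741 to 5724, with no overlap.

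**Figure D2:**
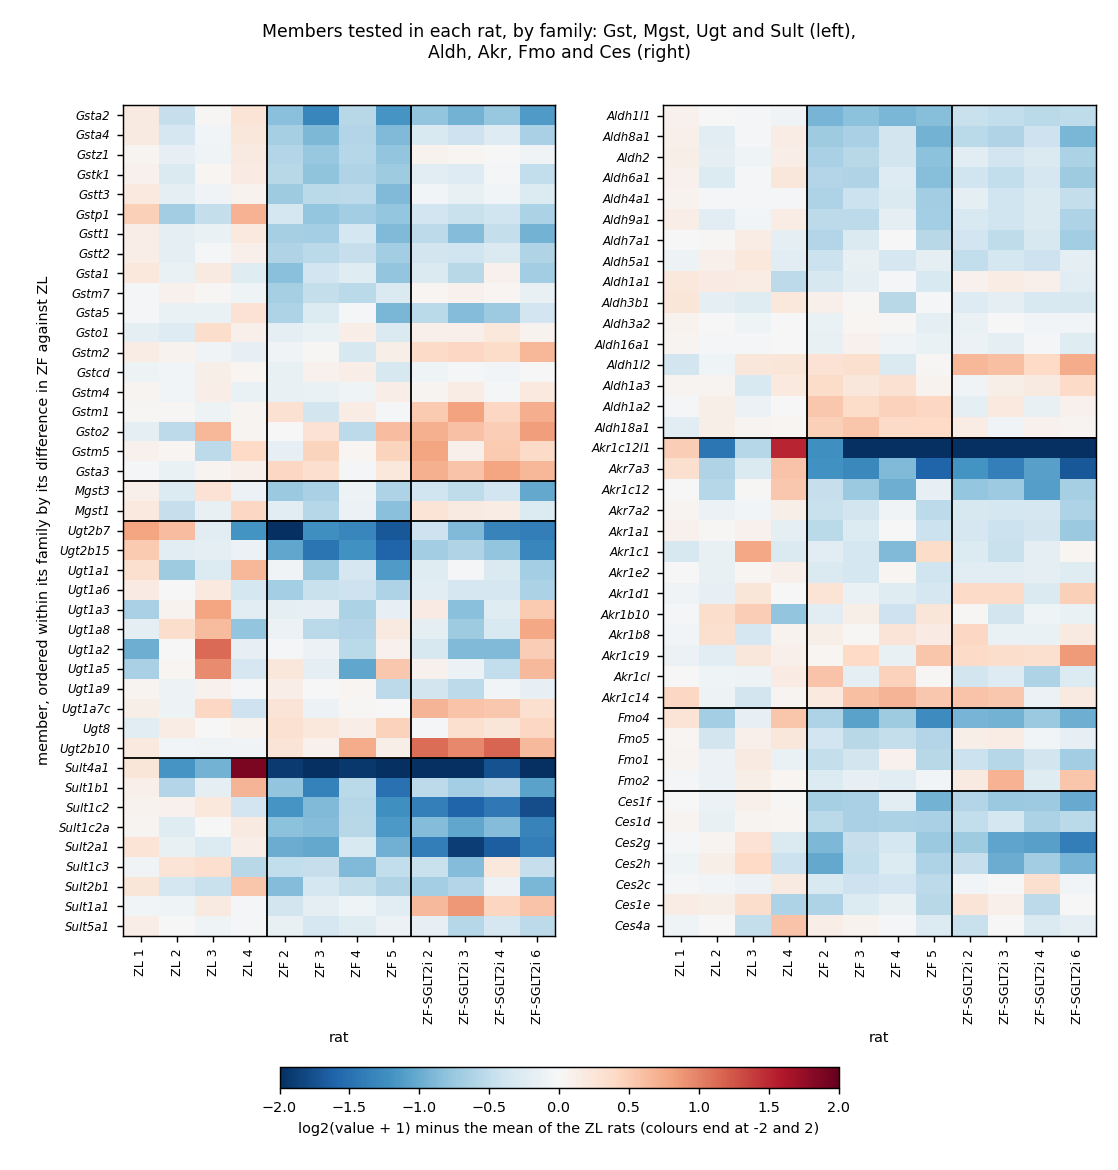
Values of 82 of the 83 members tested (rows, by family) in the 12 rats (columns). Colours give log2(value + 1) minus the mean of the ZL rats, blue for lower and red for higher, and end at -2 and 2. In ZF against ZL, 68 of the 83 members had a negative log2 fold change and 15 a positive one, and Akr1c12l1 and Sult4a1 also vary from blue to red among the ZL rats.

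Of 19 glutathione S-transferases tested, 9 were lower in ZF than in ZL. In ZF-SGLT2i against ZF, 6 were higher, of the 11 higher in all families, and in ZF-SGLT2i against ZL 5 were lower and 3 higher. Gstz1, the zeta-class enzyme that is also the maleylacetoacetate isomerase of tyrosine breakdown, had values of 104, 89.3, 95.1 and 114 in the ZL rats, 66.2, 58.7, 67 and 57.6 in the ZF rats and 105, 103, 100.4 and 95.1 in the ZF-SGLT2i rats. Every ZF rat was below every rat of the other groups, and these overlapped. The log2 fold change was -0.68 ± 0.078 (SE) in ZF against ZL (limma adjusted p = 0.000119), 0.69 ± 0.078 in ZF-SGLT2i against ZF (limma adjusted p = 0.000534) and 0.008 ± 0.078 in ZF-SGLT2i against ZL, with a 95% interval of -0.16 to 0.18. Gstt3, a theta-class enzyme and one of the 2 Gst members with the most reads, had values of 507, 391, 422 and 468, 272, 307, 308 and 241 and 427, 401, 428 and 367 in the same order. Again the ZF rats stood below both other groups, by 0.66 ± 0.095 on the log2 scale against ZL (limma adjusted p = 0.000724) and by 0.53 ± 0.095 against ZF-SGLT2i (limma adjusted p = 0.00913). Gstm7, a mu-class enzyme with few reads, had values of 9.96, 10.7, 10.3 and 9.47 (ZL), 6.04, 7.02, 6.67 and 8.09 (ZF) and 10.4, 10.8, 10.4 and 9.03 (ZF-SGLT2i), with a fold change of 0.49 ± 0.098 in ZF-SGLT2i against ZF (limma adjusted p = 0.016). That call was lost without ZF rat 2 or ZF-SGLT2i rat 3 (limma adjusted p of 0.0503 to 0.0554).

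Other Gst members were higher in ZF-SGLT2i than in both other groups. Gstm1 had values of 8.97, 8.93, 8.16 and 9.2 in ZL and 11.1, 6.61, 9.91 and 8.64 in ZF, and 13.1, 16.1, 12.1 and 15.2 in ZF-SGLT2i, and Gstm2 had values of 27.3, 25.7, 23.2 and 21.6 (ZL), 23.1, 24.9, 19.4 and 26.5 (ZF) and 32, 32.8, 31.8 and 39.1 (ZF-SGLT2i). Both are mu-class enzymes, and for both the 4 treated rats lay above the 8 others. Gsta3, an alpha-class enzyme, had values of 9.78, 9.02, 10.4 and 10.8 (ZL), 13.6, 12.9, 9.66 and 11.7 (ZF) and 17, 15.3, 18 and 16.4 (ZF-SGLT2i), again with every treated rat on top. Against ZF, the log2 fold changes were 0.60 ± 0.13 for Gstm1, 0.52 ± 0.10 for Gstm2 and 0.46 ± 0.10 for Gsta3 (limma adjusted p = 0.0274, 0.0167 and 0.0294). Against ZL they were 0.62 ± 0.13, 0.46 ± 0.10 and 0.69 ± 0.10 (limma adjusted p = 0.00441, 0.00583 and 0.00048). The call against ZF was lost for Gstm1 without ZF rat 3 or ZF-SGLT2i rat 3 or 6 (limma adjusted p of 0.0653 to 0.0939), for Gstm2 without ZF-SGLT2i rat 6 (limma adjusted p = 0.056) and for Gsta3 without ZF rat 3 or 4 or ZF-SGLT2i rat 2, 3, 4 or 6 (limma adjusted p of 0.0526 to 0.0857).

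The alpha-class enzyme Gsta2 was lower in both fatty groups, with values of 473, 305, 425 and 506 in the ZL rats, 235, 169, 287 and 184 in the ZF rats and 244, 217, 248 and 190.2 in the ZF-SGLT2i rats. ZL rats were above all others, and the ZF and ZF-SGLT2i rats overlapped. Gsta2 was 1.95-fold lower in ZF and 1.9-fold lower in ZF-SGLT2i than in ZL by the ratio of means (limma adjusted p = 0.00255 and 0.00191). Gsta4, which conjugates the lipid aldehyde 4-hydroxynonenal, was at 94.1 ± 16.3 in ZL and 54.8 ± 6.12 in ZF, and 70.4 ± 8.17 in ZF-SGLT2i (mean ± SD, n = 4). It was lower in both comparisons with ZL, by 0.76 ± 0.12 and 0.40 ± 0.12 on the log2 scale (limma adjusted p = 0.00146 and 0.0259), the second of which was lost without ZL rat 1 or 4 or ZF-SGLT2i rat 3 or 6 (limma adjusted p of 0.0595 to 0.087). Gstk1, the kappa-class enzyme of mitochondria and peroxisomes, was 1.62-fold lower in ZF (limma adjusted p = 0.00188), and Gstt1 was 1.58-fold lower in ZF and 1.65-fold lower in ZF-SGLT2i (limma adjusted p = 0.00605 and 0.00196). Gsta1, the other Gst member with the most reads, was 1.47-fold lower in ZF (limma adjusted p = 0.0359), a call that was lost without ZL rat 1 or 3 or ZF rat 2 or 5 (limma adjusted p of 0.0881 to 0.106) and with quantile normalization (limma adjusted p = 0.129). The alpha and mu genes are close relatives in sequence, and reads that fit several of them could be split between them in the counting. Of the 2 membrane-bound members tested, Mgst3 was lower in ZF and in ZF-SGLT2i, by 0.53 ± 0.17 and 0.57 ± 0.17 on the log2 scale (limma adjusted p = 0.0402 and 0.0202). The first was lost without ZL rat 1 or 3, ZF rat 2, 3 or 5, or ZF-SGLT2i rat 3 (limma adjusted p of 0.0541 to 0.112) and with quantile normalization (limma adjusted p = 0.0751), and the second without ZL rat 1 or 3 or ZF-SGLT2i rat 6 (limma adjusted p of 0.0562 to 0.0637). Mgst1, with means of 83.3, 61.1 and 86.7, passed in no comparison (limma adjusted p = 0.129, 0.172 and 0.789).

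Because 11 members were higher in ZF-SGLT2i than in ZF, their promoters were searched for 3 short motifs on both strands. RefSeq promoters of the GRCr8 build, 250 bases before to 50 after each start, were there for 77 of the 92 members, and 2 members had more than 1. The core of the antioxidant response element, the site of NRF2 and its relatives (TGACNNNGC), was in 12 of the 77 (15.6%) and in 13.1% of all genes with a promoter. Among the 11 members that were higher in ZF-SGLT2i than in ZF it was in 3, Gstz1, Gstm7 and Gsta3, and among the 29 with a promoter that were lower in ZF than in ZL it was in 6 (20.7%). In ZF-SGLT2i against ZL it was in 3 of the 28 lower members with a promoter (10.7%) and in 1 of the 7 higher ones (14.3%). The D-box (TTATGTAA), the site of the clock-controlled factors Dbp, Tef and Hlf, was in 4 of the 77 (5.19%) and in 0.958% of all genes. These 4 were Gsta3 and Ces1c, Ces1d and Ces1e, which are relatives of the Ces1 subfamily and not independent counts. Ces1c was not tested, and among the members tested the D-box was in 3 of 71 (4.23%). Among the 11 members higher in ZF-SGLT2i than in ZF it was in 1, Gsta3, where it lies after the start, outside the bases shown. The HNF1 motif was in 1, Ugt1a3, and in 0.371% of all genes. No match to one motif overlapped a match to another. The 250 bases before the start are shown for the 3 treated members with the antioxidant core and for Ces1d, the member with 2 D-boxes. They run 5′ to 3′ on the gene's strand, with the motif in capitals. Gstz1 lies at chr6:112525356-112525605 (plus strand), Gstm7 at chr2:198260320-198260569 (minus strand), Gsta3 at chr9:31154739-31154988 (plus strand) and Ces1d at chr19:30046244-30046493 (plus strand). A match is a run of letters and does not show that a factor binds there.
Gstz1: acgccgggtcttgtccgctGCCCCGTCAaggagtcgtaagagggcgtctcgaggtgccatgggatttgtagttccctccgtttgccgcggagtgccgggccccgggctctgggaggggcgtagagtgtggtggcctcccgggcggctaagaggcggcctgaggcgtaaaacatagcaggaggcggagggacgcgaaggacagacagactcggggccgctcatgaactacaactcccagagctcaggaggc
Gstm7: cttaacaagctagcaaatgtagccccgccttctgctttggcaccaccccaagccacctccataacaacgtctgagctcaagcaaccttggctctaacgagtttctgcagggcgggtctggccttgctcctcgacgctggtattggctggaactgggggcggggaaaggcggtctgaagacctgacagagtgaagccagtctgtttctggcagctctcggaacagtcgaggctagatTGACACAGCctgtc
Gsta3: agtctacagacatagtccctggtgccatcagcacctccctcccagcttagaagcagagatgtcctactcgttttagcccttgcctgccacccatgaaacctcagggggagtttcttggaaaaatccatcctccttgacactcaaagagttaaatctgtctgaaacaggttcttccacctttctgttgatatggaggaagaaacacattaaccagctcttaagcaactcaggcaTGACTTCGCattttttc
Ces1d: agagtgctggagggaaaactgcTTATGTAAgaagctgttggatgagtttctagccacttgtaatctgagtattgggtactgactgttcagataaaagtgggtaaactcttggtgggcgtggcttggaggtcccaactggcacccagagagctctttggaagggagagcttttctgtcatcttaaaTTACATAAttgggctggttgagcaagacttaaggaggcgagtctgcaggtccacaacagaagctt

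Among the UDP-glucuronosyltransferases, 3 of 12 members tested were lower in ZF than in ZL, and in ZF-SGLT2i 2 were lower and 2 higher than in ZL. Ugt2b15, a steroid-conjugating member, had values of 126, 74.8, 77.9 and 81.1 in the ZL rats, 42.2, 31.4, 37.6 and 28.4 in the ZF rats and 53.7, 57.6, 50.5 and 35.1 in the ZF-SGLT2i rats. The ZL rats were above all 8 fatty rats, ZL rat 1 by the widest margin. The log2 fold change was -1.33 ± 0.18 in ZF and -0.85 ± 0.18 in ZF-SGLT2i, both against ZL (limma adjusted p = 0.000487 and 0.00403). Ugt2b7 had values of 15.6, 13.8, 7.26 and 3.22 (ZL), 1.15, 3.11, 2.91 and 1.97 (ZF) and 6.19, 4.24, 2.82 and 2.68 (ZF-SGLT2i). ZL rat 4 was close to the highest ZF rat, although the groups did not overlap, and Ugt2b7 was 4.37-fold lower in ZF by the ratio of means (limma adjusted p = 0.0109). In ZF-SGLT2i against ZL its log2 fold change was -1.0 ± 0.37 (limma adjusted p = 0.0617). Ugt1a6, which conjugates small phenols, was lower in ZF by 0.54 ± 0.12 on the log2 scale (limma adjusted p = 0.00663) and in ZF-SGLT2i by 0.38 ± 0.12 (limma adjusted p = 0.0251), the latter lost without ZL rat 1 or 3 or ZF-SGLT2i rat 6 (limma adjusted p of 0.0678 to 0.0843) and with quantile normalization (limma adjusted p = 0.0725). Ugt1a1, the bilirubin-conjugating enzyme, had means of 201, 131 and 153 and passed in no comparison (limma adjusted p = 0.163, 0.69 and 0.424). The Ugt1a genes share their last exons, so reads there cannot be given to 1 of them.

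Ugt2b10 and Ugt1a7c were the members higher in ZF-SGLT2i than in ZL, and Ugt2b10 also passed against ZF. It had values of 2.24, 1.73, 1.7 and 1.7 in ZL and 2.4, 2.0, 3.76 and 2.08 in ZF, and 5.14, 4.54, 5.33 and 3.46 in ZF-SGLT2i, so that 1 treated rat was below ZF rat 4 and all treated rats were above all ZL rats. The fold change was 1.8 against ZF and 2.5 against ZL by the ratio of means (limma adjusted p = 0.0427 and 0.000978). The first rests on few reads and was lost without ZL rat 1 or 2, ZF rat 2, 3 or 5, or ZF-SGLT2i rat 2, 3 or 4 (limma adjusted p of 0.0534 to 0.127). It was also lost with a pseudocount of 0.1, with ZL left out of the fit and with edgeR on the whole reads (adjusted p = 0.0529, 0.0588 and 0.0607). Ugt1a7c had values of 22.7, 19.3, 28.1 and 15.4 in ZL and 25.2, 19.1, 21.3 and 21.1 in ZF, and 33.9, 31.4, 30.8 and 26.2 in ZF-SGLT2i. All treated rats were above all ZF rats, and ZL rat 3 was above the lowest of them. The log2 fold change was 0.52 ± 0.15 against ZL (limma adjusted p = 0.0181), a call lost without ZF-SGLT2i rat 2 (limma adjusted p = 0.0515). Against ZF it was 0.48 ± 0.15, which did not pass (limma adjusted p = 0.102).

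Of 9 sulfotransferases tested, 5 were lower in ZF than in ZL. In ZF-SGLT2i 6 were lower than in ZL and 1 was higher. Sult1c2a, the member with the most reads of all 92, had values of 7277, 5900.0, 7015 and 7967 in the ZL rats, 3963, 3847, 4787 and 3141 in the ZF rats and 3817, 3417, 3848 and 2758 in the ZF-SGLT2i rats. ZL rats were above all others, and ZF rat 4 was the highest of the fatty rats. Its log2 fold change was -0.85 ± 0.16 in ZF and -1.03 ± 0.16 in ZF-SGLT2i against ZL (limma adjusted p = 0.00369 and 0.000578). The close relative Sult1c2 had values of 1343, 1356, 1483 and 977 (ZL), 559.9, 694, 862 and 544 (ZF) and 491, 418, 470.3 and 371 (ZF-SGLT2i), and the 3 groups did not overlap. It was 1.94-fold lower in ZF and 2.95-fold lower in ZF-SGLT2i than in ZL (limma adjusted p = 0.00146 and 2.24e-05). With canagliflozin against without it, its log2 fold change was -0.59 ± 0.16, which did not pass (limma adjusted p = 0.0585). The reads of these relatives may be split between them. Sult2a1, which sulfates steroids and bile acids, had values of 3.95, 2.69, 2.38 and 3.48 (ZL), 1.05, 1.0, 2.31 and 1.09 (ZF) and 0.571, 0.101, 0.302 and 0.557 (ZF-SGLT2i), again in 3 groups that did not overlap, with a fold change of -0.82 ± 0.20 in ZF and -1.58 ± 0.20 in ZF-SGLT2i against ZL (limma adjusted p = 0.0126 and 0.000127). In ZF-SGLT2i against ZF it was -0.76 ± 0.20 (limma adjusted p = 0.057). Sult4a1, best known from the brain, had values of 7.72, 2.25, 2.83 and 26.2 in ZL and of 0.219 to 0.959 in the ZF rats and 0 to 1.21 in the ZF-SGLT2i rats. It reached 1 in all 4 ZL rats and in 1 fatty rat, and it was tested only through the ZL rats.

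Sult1a1, the main phenol sulfotransferase, was higher with canagliflozin. Its values were 27.2, 26.4, 31.9 and 27.4 in ZL and 21.7, 24.6, 26.5 and 24 in ZF, and 44.6, 52.3, 38.3 and 42.1 in ZF-SGLT2i. All 4 treated rats were above the 8 others. The log2 fold change of 0.84 ± 0.096 against ZF was the largest rise among the members in that comparison, 1.83-fold by the ratio of means, and against ZL it was 0.63 ± 0.096 (limma adjusted p = 0.000534 and 0.000492). In ZF against ZL it was -0.21 ± 0.096 (limma adjusted p = 0.135). Of the 13 members called in ZF-SGLT2i against ZF, Sult1a1, Gstz1, Gstt3 and Aldh1l1 kept their calls with any 1 of the 12 rats left out.

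Of 16 aldehyde dehydrogenases tested, 6 were lower and 2 higher in ZF than in ZL. Aldh1l1, whose changes had the smallest standard error of all changes called among the members, is the folate enzyme that oxidises 10-formyltetrahydrofolate. It had values of 238, 225, 219.9 and 214 in the ZL rats, 117, 126, 118 and 124 in the ZF rats and 164, 159, 153 and 157 in the ZF-SGLT2i rats. The 3 groups did not overlap, and the treated rats lay between the others. The fold change was -0.88 ± 0.051 in ZF against ZL, 0.38 ± 0.051 in ZF-SGLT2i against ZF and -0.50 ± 0.051 in ZF-SGLT2i against ZL (limma adjusted p = 2.84e-07, 0.00115 and 2.46e-05). Its mitochondrial counterpart Aldh1l2 had values of 0.179 to 0.804 (ZL), 0.256 to 0.902 (ZF) and 1.01 to 1.56 (ZF-SGLT2i). It reached 1 only in the 4 ZF-SGLT2i rats, through which it was tested.

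Aldh6a1, the valine-pathway enzyme and the Aldh member with the most reads, had values of 1599, 1239, 1459 and 1748 in the ZL rats, 998, 992, 1258 and 829 in the ZF rats and 1141, 1068, 1188 and 911 in the ZF-SGLT2i rats. ZF rat 4 was just above ZL rat 2, and the treated rats were below all ZL rats. Aldh4a1, of proline breakdown, was 1.42-fold lower in ZF and 1.26-fold lower in ZF-SGLT2i than in ZL (limma adjusted p = 0.00217 and 0.0123), the latter lost with quantile normalization (limma adjusted p = 0.0883). For Aldh8a1, of tryptophan breakdown, the same ratios were 1.59 and 1.53 (limma adjusted p = 0.00364 and 0.00338). Aldh6a1 itself fell by 0.57 ± 0.13 on the log2 scale in ZF and by 0.48 ± 0.13 in ZF-SGLT2i (limma adjusted p = 0.0109 and 0.0168), the latter lost without ZL rat 1 or ZF-SGLT2i rat 6 (limma adjusted p of 0.0507 to 0.059). With quantile normalization both calls were lost, at changes of -0.30 and -0.21 (limma adjusted p = 0.106 and 0.21). Aldh2, the mitochondrial enzyme that oxidises acetaldehyde, had values of 591, 481, 512 and 592 in ZL and 347, 369, 420.1 and 305 in ZF, and 465, 414, 445 and 349 in ZF-SGLT2i. All ZL rats were above all others, and it was 1.51-fold lower in ZF and 1.3-fold lower in ZF-SGLT2i (limma adjusted p = 0.00319 and 0.0207), the latter lost without ZL rat 1 or 4 or ZF-SGLT2i rat 6 (limma adjusted p of 0.0522 to 0.0705) and with quantile normalization (limma adjusted p = 0.108).

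Aldh18a1 and Aldh1a2 were higher in ZF than in ZL, and both fell with canagliflozin, 2 differences that share the ZF rats. Aldh18a1, which makes the precursor of proline, had values of 10.2, 13.2, 12.6 and 12.3 in the ZL rats, 17.1, 18.1, 16 and 16.2 in the ZF rats and 13.4, 11.4, 12.9 and 12.6 in the ZF-SGLT2i rats. Aldh1a2, which makes retinoic acid from retinaldehyde, had values of 6.37, 7.11, 5.9 and 6.52 (ZL), 9.88, 8.62, 9.32 and 8.96 (ZF) and 5.62, 7.57, 5.74 and 6.91 (ZF-SGLT2i). For both, all ZF rats were above all 8 others. In ZF against ZL the fold changes were 0.45 ± 0.09 and 0.45 ± 0.11 (limma adjusted p = 0.00467 and 0.011), and in ZF-SGLT2i against ZF they were -0.39 ± 0.09 and -0.46 ± 0.11 (limma adjusted p = 0.0293 and 0.0309). The second call was lost for Aldh18a1 without ZF rat 2, 3 or 4 or ZF-SGLT2i rat 3, 4 or 6 (limma adjusted p of 0.0565 to 0.0997) and for Aldh1a2 without ZF rat 2, 3 or 4 or ZF-SGLT2i rat 2, 4 or 6 (limma adjusted p of 0.058 to 0.0948). Aldh1a1, the other retinaldehyde dehydrogenase with many reads, had means of 742, 630.3 and 745 and passed in no comparison (limma adjusted p = 0.347, 0.435 and 0.903).

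**Figure D3:**
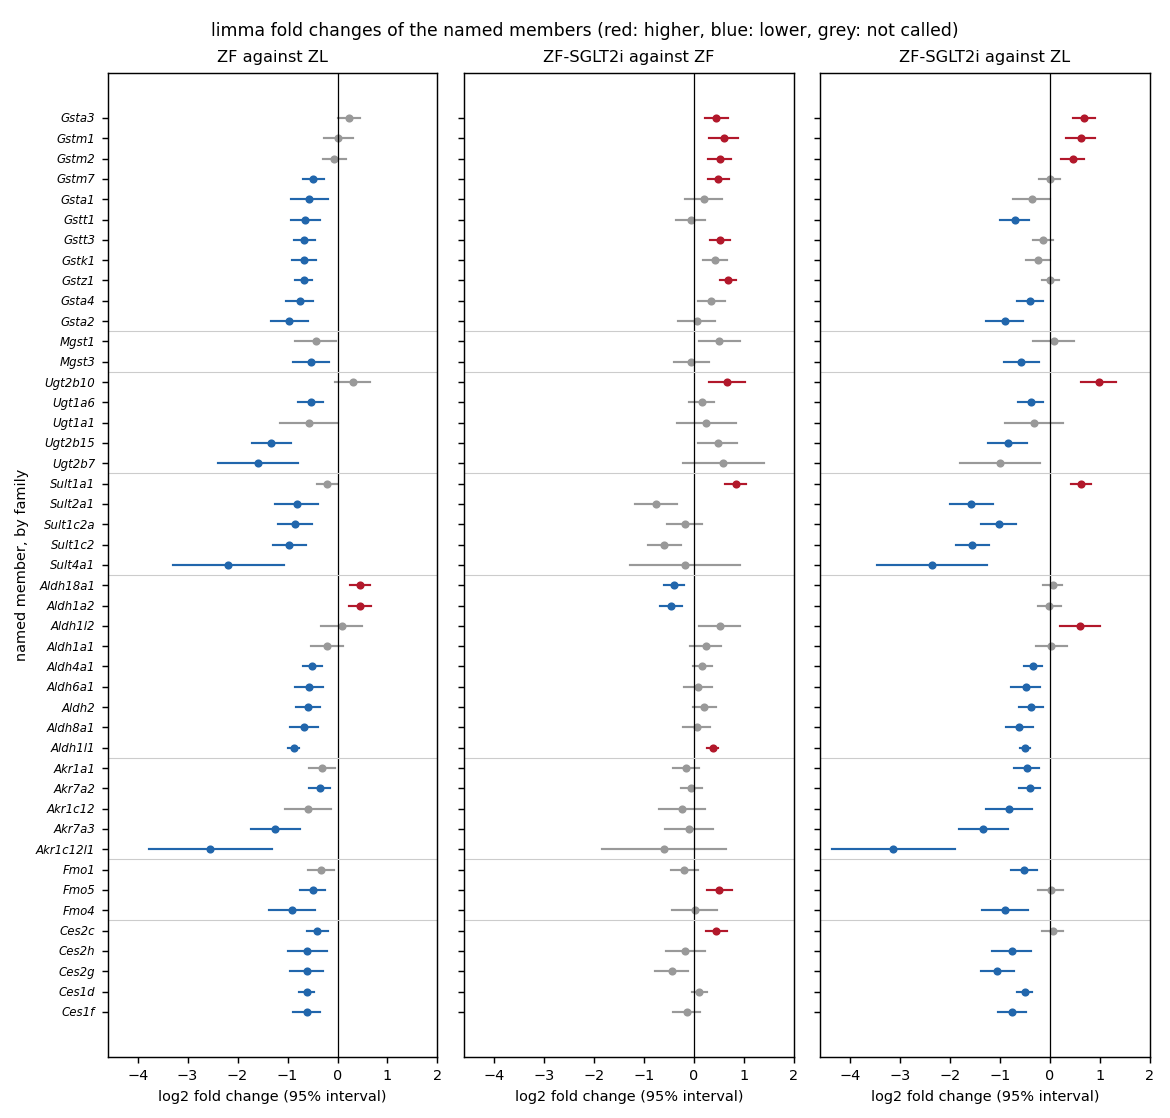
limma log2 fold changes (points) with 95% intervals (lines) of 45 of the 46 members named by rule in the 3 comparisons, named above each panel, by family. Red is higher, blue is lower and grey did not pass an adjusted p of 0.05. Most named members are blue on the left and on the right, and Akr1c12l1, Sult4a1 and Ugt2b7 have the widest intervals in ZF against ZL. Sult4a1 and Aldh1l2 passed the filter through 1 group, and their intervals are a description.

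In the aldo-keto reductases, 3 of 13 members tested were lower in ZF, and in ZF-SGLT2i 5 were lower and 1 higher than in ZL. Akr1c12l1, of the subfamily that reduces ketones and steroids, had values of 162, 41.2, 76.8 and 331 in the ZL rats, 48.4, 10.9, 27.9 and 7.98 in ZF and 10.2, 13.7, 13.6 and 11.4 in ZF-SGLT2i. The ZL rats were spread over a wide range, ZF rat 2 was above ZL rat 2, and the treated rats were close together and below all ZL rats. The fold change was -2.54 ± 0.58 in ZF (limma adjusted p = 0.0092, exact permutation p = 0.0571) and -3.14 ± 0.58 in ZF-SGLT2i (limma adjusted p = 0.00155). Akr7a3, an aldehyde reductase known for its action on aflatoxin dialdehyde, had values of 509, 269, 337 and 609.9 (ZL), 177, 166, 222 and 135 (ZF) and 179, 158, 193 and 126 (ZF-SGLT2i). ZL rats were above all others, and Akr7a3 was 2.46-fold lower in ZF and 2.63-fold lower in ZF-SGLT2i than in ZL (limma adjusted p = 0.00286 and 0.000955). Its relative Akr7a2 was lower by 0.35 ± 0.098 on the log2 scale in ZF (limma adjusted p = 0.0238), a call lost without ZL rat 1 or 4 or ZF rat 2, 3 or 5 (limma adjusted p of 0.0561 to 0.0681) and with quantile normalization (limma adjusted p = 0.0893), and by 0.41 ± 0.098 in ZF-SGLT2i (limma adjusted p = 0.00792). Akr1a1, the aldehyde reductase of ascorbate synthesis and the Akr member with the most reads, had means of 927, 751 and 672. It passed against ZL in ZF-SGLT2i but not in ZF (limma adjusted p = 0.0111 and 0.0844), and so did Akr1c12, with means of 15.8, 10.0 and 8.26 (limma adjusted p = 0.0125 and 0.0711). The call of Akr1a1 was lost with quantile normalization, at a change of -0.25 against -0.47 ± 0.12 (limma adjusted p = 0.0523).

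Of the flavin-containing monooxygenases, 3 of 5 were lower in ZF. Fmo4 had means of 156, 79.7 and 79.5 and was lower against ZL in both (limma adjusted p = 0.0104 and 0.00711). Fmo5 had values of 37.4, 28, 39.3 and 42.9 (ZL), 27.7, 24.5, 26 and 24 (ZF) and 39.6, 40.7, 35.1 and 32.4 (ZF-SGLT2i), with all ZF rats below all others. It was lower in ZF than in ZL by 0.50 ± 0.11 and higher in ZF-SGLT2i than in ZF by 0.51 ± 0.11 on the log2 scale (limma adjusted p = 0.00978 and 0.0274), the second lost without ZF rat 3 or 4 or ZF-SGLT2i rat 2, 3 or 4 (limma adjusted p of 0.0578 to 0.0939). Fmo1, with the most reads of the family, had means of 395, 318 and 276 and was lower in ZF-SGLT2i than in ZL (limma adjusted p = 0.0079), while in ZF its fold change was -0.33 ± 0.12 (limma adjusted p = 0.0807).

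Among the carboxylesterases, 5 of 7 members tested were lower in ZF. Ces1f, which acts on lipid esters as well as drugs and had the most reads of the family, had values of 725, 665, 776 and 733 in the ZL rats, 456, 460.1, 622 and 377 in the ZF rats and 484, 434, 439 and 359 in the ZF-SGLT2i rats. ZL rats were above all others. The fold change was -0.62 ± 0.13 in ZF and -0.76 ± 0.13 in ZF-SGLT2i against ZL (limma adjusted p = 0.00572 and 0.000914). Ces1d, whose promoter was shown with its 2 D-boxes, had values of 45.8, 39.5, 45.9 and 45.1 (ZL), 29.9, 27.8, 28 and 27.8 (ZF) and 31, 34.1, 28.2 and 29.9 (ZF-SGLT2i), and was 1.55-fold lower in ZF and 1.43-fold lower in ZF-SGLT2i (limma adjusted p = 0.000138 and 0.000315). Ces2g was 1.54-fold lower in ZF and 2.09-fold lower in ZF-SGLT2i than in ZL, and between these last 2 groups its fold change was -0.44 ± 0.15 (limma adjusted p = 0.0146, 0.000351 and 0.146). Ces2h was lower in both as well (limma adjusted p = 0.0339 and 0.00718), the first lost without ZL rat 1, 2 or 3 or ZF rat 2, 3 or 5 (limma adjusted p of 0.0597 to 0.102) and with ZF-SGLT2i left out of the fit (limma adjusted p = 0.0594). Ces2c was the carboxylesterase that was higher with canagliflozin, with values of 27.5, 27, 25.9 and 31.8 (ZL), 22.5, 20.8, 21.3 and 19.2 (ZF) and 26.9, 28.3, 35.3 and 26.8 (ZF-SGLT2i) and all ZF rats below all others. It fell by 0.40 ± 0.095 in ZF against ZL and was higher by 0.46 ± 0.095 in ZF-SGLT2i than in ZF (limma adjusted p = 0.0115 and 0.0205), the second lost without ZF rat 3 or ZF-SGLT2i rat 3 (limma adjusted p of 0.052 to 0.0565).

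The 37 members tested that are not named here had log2 fold changes of -1.04 to 0.50 in ZF against ZL, where 3 of them were lower. With canagliflozin they changed by -0.60 to 0.56 against ZF. Their range against ZL was -0.72 to 0.66, with 7 lower and 2 higher.

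**Figure D4:**
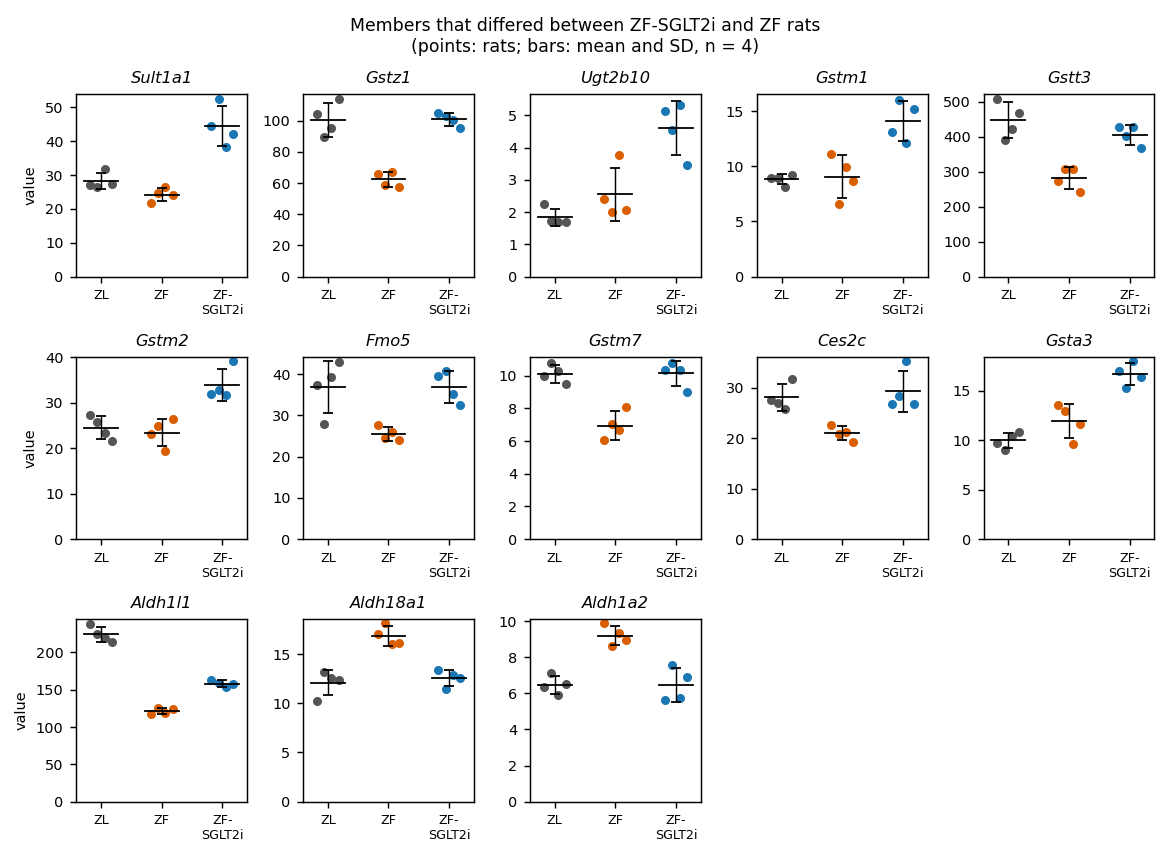
Normalized values (vertical axis, from 0) of the 13 members that differed between ZF-SGLT2i and ZF rats, 11 higher and 2 lower, in the 3 groups (horizontal axis). Points are rats, and bars are the mean and SD of 4 rats. In every panel except that of Ugt2b10 the ZF and ZF-SGLT2i rats do not overlap.

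The ZL rats were not alike. Akr1c12l1 was 8.04 times as high in ZL rat 4 as in ZL rat 2, and Sult4a1 11.6 times, whereas Aldh1l1 and Aldh4a1 differed by a factor of at most 1.11 among the ZL rats. Ugt2b7, in contrast, was highest in ZL rat 1 and lowest in ZL rat 4, by a factor of 4.86. Markers of the late proximal tubule were highest in ZL rats 4 and 1. Their 7 genes summed to 1486 in ZL rat 1, 469 in rat 2, 664 in rat 3 and 2901 in rat 4. The same sum was between 188 and 492 in the ZF rats and between 278 and 388 after canagliflozin. Slc7a13, the most abundant of them in ZL on average, had values of 838, 139.9, 244 and 1896 in ZL and 148, 21.4, 36 and 6.12 in ZF, and 14.1, 19.3, 22.3 and 14.4 in ZF-SGLT2i. Of the 7 genes, 5 were lower in ZF than in ZL and 4 in ZF-SGLT2i than in ZL. Slco1a1, which is also known to be higher in male than in female rat kidney, went from 117 in ZL to 10.3 and 3.65 on average. Of 5 genes listed here as male-high, 3 of which are also in the late tubule list, 4 were lower in both fatty groups than in ZL. The sex difference of each listed gene was not checked. The part of these markers in the members' lower values was not tested. Leaving out ZL rats 1 and 4, a choice made after the values were seen, ended the call in ZF against ZL for 12 named members, with limma adjusted p of 0.0667 to 0.209, among them Akr1c12l1, Akr7a2, Aldh1a2, Aldh6a1, Ces2c, Fmo4, Fmo5, Gsta1, Gstt1, Mgst3 and Sult2a1. In ZF-SGLT2i against ZL it ended the call for 10, with limma adjusted p of 0.0782 to 0.306, among them Akr1c12, Akr7a2, Aldh2, Aldh4a1, Aldh6a1, Fmo4, Gsta4, Mgst3 and Ugt1a7c.

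**Figure D5:**
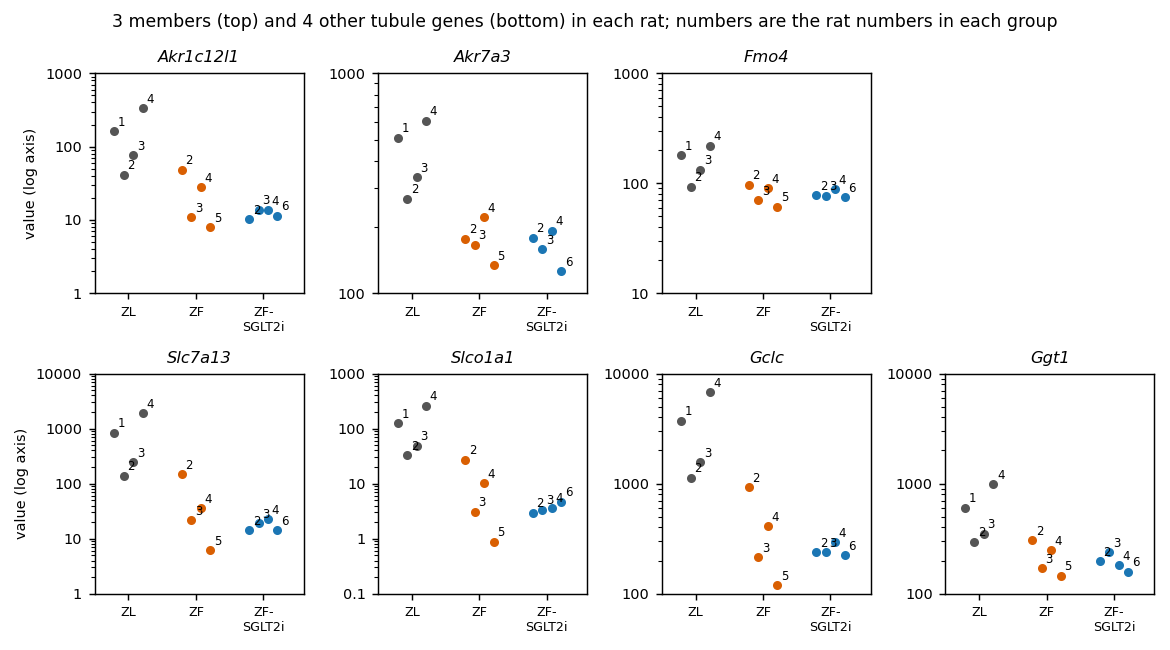
Normalized values (vertical axes, logarithmic) of 3 members, Akr1c12l1, Akr7a3 and Fmo4 (top), and of Slc7a13, Slco1a1, Gclc and Ggt1 (bottom) in each rat, with the rat number beside each point. In all 7 panels ZL rats 4 and 1 are the highest, and ZF rat 5 is the lowest of the ZF rats.

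Of 15 genes of glutathione synthesis and breakdown that were tested, 8 were lower and 1 higher in ZF than in ZL, and the same counts held in ZF-SGLT2i against ZL. Gclc, the catalytic subunit of the rate-limiting enzyme of glutathione synthesis, had values of 3722, 1134, 1559 and 6730.3 in the ZL rats, 923, 214, 412 and 119.7 in the ZF rats and 237, 239.6, 293 and 224 in the ZF-SGLT2i rats. The ZL rats were again spread, in the order of Slc7a13, and above all 8 fatty rats. Its fold change was -3.03 ± 0.57 in ZF and -3.38 ± 0.57 in ZF-SGLT2i (limma adjusted p = 0.00369 and 0.000978). Gclm, the modifier subunit of the same enzyme, fell by 1.46 ± 0.40 on the log2 scale in ZF (limma adjusted p = 0.0229), and Ggt6 was the gene that was higher, by 0.66 ± 0.17 (limma adjusted p = 0.0166). For the supply of UDP-glucuronic acid and the removal of glucuronides, 2 of 5 genes were lower in ZF, Slc35d1 and Ugdh, and 1 was higher, Gusb, the enzyme that splits glucuronides (limma adjusted p = 0.00871, 0.0294 and 0.0177). For sulfate, 2 of 9 genes were lower in ZF, Papss2 and Bpnt1 (limma adjusted p = 0.0317 and 0.0335), where Papss2 makes PAPS. In ZF-SGLT2i against ZL, limma called 1 of the 5 genes, which was lower, and 0 of the 9, of which 1 had an unadjusted p under 0.05.

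Of 15 other conjugating enzymes, 7 were lower in ZF and 8 were lower and 1 higher in ZF-SGLT2i than in ZL. Hnmt, which methylates histamine, had means of 85.4 in ZL and 10.5 in ZF, and 4.49 in ZF-SGLT2i (limma adjusted p = 0.0181 and 0.00536 against ZL). Acsm3, a medium-chain acyl-CoA synthetase, had 926 ± 193, 373 ± 33.3 and 484 ± 34.6 and was 2.48-fold lower in ZF (limma adjusted p = 2.58e-05). The gene that was higher in ZF-SGLT2i was Baat, which joins bile acids to amino acids, at 11.3 ± 3.93 against 6.67 ± 2.02 in ZL (limma adjusted p = 0.0313). Of 25 other aldehyde, ketone, quinone and epoxide enzymes, 8 were lower and 3 higher in ZF than in ZL, and the counts were the same in ZF-SGLT2i. The 2 largest falls were those of Dhrs7, from 419.8 to 55.7, and of Hsd11b1, which regenerates corticosterone, from 441 to 247 (limma adjusted p = 0.00609 and 0.00801). The higher genes included the carbonyl reductases Cbr3 and Cbr1, higher by 0.80 ± 0.13 and 0.40 ± 0.13 on the log2 scale (limma adjusted p = 0.00144 and 0.0418). In ZF-SGLT2i against ZF, 1 gene of these 5 lists passed, Dcxr, a carbonyl reductase of L-xylulose, with means of 248, 186 and 236 in ZL, ZF and ZF-SGLT2i (limma adjusted p = 0.0335). At an unadjusted limma p under 0.05, which 17.2% of all genes reached there, the counts were 4 of the 15 glutathione genes, 1 of the 5 and 1 of the 9 genes of the glucuronic acid and sulfate lists, 5 of the 15 conjugating enzymes and 6 of these 25.

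Among 20 regulators of drug-metabolism genes, 4 were higher and 4 lower in ZF than in ZL, 6 were higher and 3 lower in ZF-SGLT2i than in ZL, and 2 were higher in ZF-SGLT2i than in ZF. Ppara, the fatty acid receptor, had values of 44.9, 48.5, 50.1 and 36.7 in the ZL rats, 54.6, 68, 63.6 and 84.7 in the ZF rats and 90.3, 104, 108 and 118 in the ZF-SGLT2i rats. The 3 groups rose in that order without overlap, by 0.57 ± 0.13 on the log2 scale from ZL to ZF, then by 0.64 ± 0.13 with canagliflozin (limma adjusted p = 0.00857 and 0.0162). Cebpb was the other, with means of 19.3, 20.0 and 34.9 (limma adjusted p = 0.0282 in ZF-SGLT2i against ZF). The NRF2 gene Nfe2l2 had means of 165, 182 and 182, and its inhibitor Keap1 had 51.5, 54.4 and 55.6. Neither passed in ZF against ZL (limma adjusted p = 0.11 and 0.351). Of 24 genes of the NRF2 pathway, which shares 4 genes with the glutathione list, 7 were lower in ZF than in ZL, and in ZF-SGLT2i 9 were lower and 2 higher than in ZL. In ZF-SGLT2i against ZF, 5 of them had an unadjusted limma p under 0.05, and the lowest limma adjusted p was that of Ftl1, a ferritin chain (0.0582).

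Other gene groups moved with these comparisons, and their part in the members' values was not tested. Of 14 clock genes, 8 were higher and 4 lower in ZF than in ZL, and 9 and 4 in ZF-SGLT2i. Dbp, the D-box factor, had values of 25.3, 37.5, 34 and 65.9 in ZL and 250.4, 297, 182 and 286 in ZF, and 296, 257, 334 and 299 in ZF-SGLT2i, and Arntl had means of 43.1, 3.59 and 2.43. For both genes the ZL rats stood clear of all 8 fatty rats (limma adjusted p = 1.12e-05 and 1.12e-05 in ZF against ZL), and the labels used here give no time of day. In the other cell types, 4 of 7 podocyte markers, 1 of 7 endothelial, 1 of 8 collecting duct, 2 of 6 fibroblast and mesangial and 1 of 3 blood markers were higher in ZF than in ZL, 1 of 7 thick limb and distal tubule markers (Egf) and 1 of 2 adipocyte markers (Cidec) were lower, and of 6 markers of the early proximal tubule 1 was lower and 1 higher. Of 5 macrophage and lymphocyte markers 3 had an unadjusted limma p under 0.05 in ZF against ZL (33.1% of all genes), and the lowest limma adjusted p was that of Lyz2, lysozyme (0.0532). In ZF-SGLT2i against ZF, 4 of the 6 fibroblast and mesangial markers were lower, with a sum of 440.1 to 489 against 570.2 to 901. All 8 collecting duct markers had a positive log2 fold change there and 1 passed (Aqp2, 0.62 ± 0.16, limma adjusted p = 0.0495), with a sum of 2653 to 3009.9 in treated and 1662 to 2434 in untreated rats, which did not overlap. Of 11 injured tubule markers 1 was lower (Vcam1, -0.67 ± 0.16), and of 11 markers of all proximal tubule segments 1 was higher (Slc27a2, 0.33 ± 0.079) and 1 lower (Slc22a6, -0.59 ± 0.10). The early and late proximal tubule, thick limb and distal tubule, podocyte, endothelial, macrophage and lymphocyte, adipocyte, blood, male-high and clock lists had 0 genes called by limma in that comparison. At an unadjusted limma p under 0.05 they had 2 of 6, 2 of 7, 3 of 7, 1 of 7, 1 of 7, 2 of 5, 1 of 2, 0 of 3, 0 of 5 and 3 of 14 (17.2% of all genes). Of 11 injured tubule markers, 7 were higher in ZF, with Spp1 the most abundant at 169 in the ZL rats, 813 in the ZF rats and 569 in the ZF-SGLT2i rats, and Havcr1, its defining gene, at 1.71, 26.6 and 13.6. The sum of the injured tubule markers was 777 to 941 in ZL rats, 1171 to 2617 in untreated ZF rats and 1045 to 1765 in treated ones. Of 11 markers of all proximal tubule segments, 3 were lower and 1 higher in ZF. Their sum, in which Lrp2 was the most abundant gene, was 23146 to 24977 in ZL rats, 17829.9 to 22648 in untreated ZF rats and 15234 to 19564 in treated ones, with every fatty rat below every ZL rat. In the ZF-SGLT2i rats, 5 of 8 collecting duct markers were higher than in ZL, Aqp2 at 852 against 443, as were 4 of 7 podocyte, 1 of 7 endothelial and 1 of 3 blood markers. Lower than in ZL were 3 of 6 fibroblast and mesangial markers, 4 of 11 of all proximal tubule segments, 2 of 6 of the early segment and 1 of 2 adipocyte markers. The injured tubule list had 7 higher and 1 lower of 11 in this comparison, and the thick limb and distal tubule list 1 higher and 2 lower of 7. Of the 5 macrophage and lymphocyte markers limma called 0, and 0 had an unadjusted p under 0.05 (39.3% of all genes). Genes of ribosomal RNA took 7.25% to 12.0% of the reads on genes in ZL rats, 8.82% to 12.0% in untreated ZF rats and 11.5% to 15.2% in treated ones.

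Liver expresses many of these enzymes, and its defining genes were nearly absent: Alb had means of 0.168, 0.163 and 0.0783, and Apoa1 of 0.212, 0.238 and 0.201. The hepatocyte markers summed to 36.4 to 54.1 in ZL rats, 28.5 to 57.2 in untreated ZF rats and 34.6 to 49.8 in treated ones, with Apob the most abundant. Of 10 such markers 6 were in the table and 4 were tested, of which Serpina1 was higher in ZF-SGLT2i than in ZF, at 1.75 against 0.397. In the comparisons with ZL, limma called 0 of the 4 in ZF, where 1 had an unadjusted p under 0.05, and 1 in ZF-SGLT2i, which was higher. The adrenal cortex markers summed to between 0.547 and 3.93 in any rat, and none of them was high enough to be tested.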

How the data were processed

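RNA of whole renal cortex from 12 rats was sequenced as directional libraries after depletion of ribosomal RNA. The submitters' processing notes name Trimmomatic 0.38, RSEM 1.3.0, Bowtie2, edgeR and the rn6 genome. The deposited table holds a normalized signal per gene, which the authors made from read counts. In each rat every value was a whole number of reads times 1 constant (tolerance 1e-06), and this constant was that of edgeR's CPM with its TMM scaling factors. The authors' RSEM estimates may split reads between related genes. The table had 0 columns of other samples.

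Genes that reached a value of 1 in 4 or more rats were tested with limma 3.58.1 (R 4.3.3) on log2(value + 1), the 3 groups in one model with a trend in the variance, and p-values were Benjamini-Hochberg adjusted over all genes tested. Fold changes are on this scale, which understates those of low genes, and fold ratios are ratios of mean values. The exact permutation tests were two-sided, over 70 assignments. Alternatives included a pseudocount of 0.1, no filter, a mean of at least 10, median-ratio and quantile normalization, only the 2 groups compared, array quality weights, the rat number as a block, each rat left out, and edgeR 4.0.16 and DESeq2 1.42.0 on the recovered reads. The steps were tested on simulated data.

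The members and gene lists were chosen with earlier results of these data known. Named in each family were the 2 members with the highest mean, up to 4 (ZF against ZL) or 3 (the other comparisons) called members with the largest change and no overlap between groups, and all called in ZF-SGLT2i against ZF. From lists, up to 2 genes with the largest change each way were named. The defining marker genes, those shown for the order of the rats, Lrp2, Ggt1, Nfe2l2, Keap1, Ftl1, Lyz2 and the member Ugt1a7c were named outside this rule, after their values were seen. Promoters came from RefSeq (GRCr8). Of the 92 members, 90 matched by symbol and 1 by synonym. No coordinates of rn6 are printed, and protein sequences were not used here. The values of 1 named member are not reported here, although it is part of all counts and sums.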

Additional observations from a re-analysis of the deposited data

Results flagged for a closer look

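Of 141 groups of 4 rats checked, 3 for each of 47 named members, 10 had 1 rat set far apart from the other 3, judged by its gap to the nearest rat over the whole range of the group. Chance sets apart about 1 in 20 groups, 7.05 of these 141. ZL rat 1 was the highest for Aldh4a1, at 547 against 514 to 517 in the other ZL rats, for Ugt2b10, at 2.24 against 1.70 to 1.73, and for Ugt2b15, at 126 against 74.8 to 81.1. ZL rat 4 was the lowest for Aldh1a1, at 503 against 809 to 844. For Ces1d, ZL rat 2 was the lowest of its group at 39.5 against 45.1 to 45.9, and ZF rat 2 was the highest of its group at 29.9 against 27.8 to 28. ZF rat 4 was the highest for Mgst3, at 153 against 98.1 to 107, and for Sult2a1, at 2.31 against 1.00 to 1.09. ZF-SGLT2i rat 6 was the lowest for Akr7a2, at 246 against 297 to 305, and the highest for Gstm2, at 39.1 against 31.8 to 32.8.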

How the results depend on the processing

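The direction of every named member's called change held under every alternative that gave a value for it. For members whose groups did not overlap, leaving out rats could not have reversed the direction. In ZF against ZL, 16 of 34 named members kept their call throughout, as did 4 of 13 in ZF-SGLT2i against ZF and 19 of 34 in ZF-SGLT2i against ZL. Sult4a1 is part of both counts of 34 and is among the 19, and Aldh1l2 is part of the last 34. Both passed the filter through 1 group, so their calls are a description. When single rats were left out, the number of members called ranged from 33 to 43 in ZF against ZL (higher 2 to 3, lower 30 to 40), from 6 to 16 in ZF-SGLT2i against ZF (higher 5 to 13, lower 0 to 3) and from 32 to 43 in ZF-SGLT2i against ZL (higher 6 to 9, lower 26 to 37). Genes called in the whole table ranged from 1384 to 2453, 176 to 569 and 2238 to 3302, against 2185, 366 and 3184 with all rats. Without ZL rats 1 and 4, chosen after seeing the data, 24 members (1 higher, 23 lower) and 1044 genes were called in ZF against ZL and 27 members (5 higher, 22 lower) and 1772 genes in ZF-SGLT2i against ZL, from fewer rats. A mean of at least 10 left 1 member higher in ZF against ZL and 1 lower in ZF-SGLT2i against ZF. With array quality weights 4 members were higher in ZF against ZL, 4 were lower in ZF-SGLT2i against ZF, and 689 genes were called in the latter. edgeR and DESeq2 each called 4 members lower in ZF-SGLT2i against ZF, where DESeq2 called 641 genes. Quantile normalization ended the calls of Akr7a2, Aldh6a1, Gsta1 and Mgst3 in ZF against ZL (limma adjusted p of 0.0751 to 0.129) and of Akr1a1, Aldh2, Aldh4a1, Aldh6a1 and Ugt1a6 in ZF-SGLT2i against ZL (0.0523 to 0.21). The causes were not tested.

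The labels do not say what the rat numbers stand for. Deviations of same-numbered rats from their group means correlated at -0.376 to 0.253. With 3 such pairs in each comparison, this cannot tell whether rats of the same number share a source of variation. With the number as a replicate block, 20 members were called in ZF against ZL (0 higher, 20 lower), 6 in ZF-SGLT2i against ZF (6 higher, 0 lower) and 24 in ZF-SGLT2i against ZL (4 higher, 20 lower), with 807, 223 and 1502 genes called in all. Calls lost in ZF against ZL included Akr1c12l1, Akr7a2, Aldh18a1, Aldh1a2, Ces2c, Ces2g, Ces2h, Fmo4, Fmo5, Gsta1, Mgst3, Sult2a1, Ugt1a6 and Ugt2b7. Their limma adjusted p was 0.0556 to 0.192. In ZF-SGLT2i against ZF they were Aldh18a1, Aldh1a2, Ces2c, Fmo5, Gsta3, Gstm1 and Ugt2b10 (limma adjusted p of 0.066 to 0.194). In ZF-SGLT2i against ZL they included Akr1a1, Akr1c12, Aldh2, Aldh4a1, Aldh6a1, Ces2h, Fmo1, Gsta4, Gstm1, Mgst3, Ugt1a6 and Ugt1a7c. There the limma adjusted p was 0.0539 to 0.225. Counting error is larger for members with few reads, and its part in lost calls was not tested.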
